A study of Mus musculus with 10 samples.

Results

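The 10 genes described here, Dnmt1, Uhrf1, Dnmt3a, Dnmt3b, Tet1, Tet2, Tet3, Idh1, Idh2 and Asxl1, write, copy or remove DNA methylation or are regulators mutated in clonal hematopoiesis. They were chosen by name, for their known roles, out of the 17404 genes of the deposited count table. The libraries are bulk RNA-seq of long-term hematopoietic stem cells (LT-HSCs) that were sorted from mouse fetal livers at E14.5. The KO embryos had the genotype Tnfrsf11aCre; Spi1f/f (n = 6) and the controls were Tnfrsf11a+/+; Spi1f/f embryos (WT, n = 4), all on a C57BL/6 background. Both groups carry the floxed Spi1 alleles, and only KO carries Cre, which is driven from the Tnfrsf11a locus in macrophage precursors. Loss of Spi1 (PU.1) there depletes fetal liver macrophages, so the model alters the surroundings of the LT-HSCs rather than a gene chosen within them. The comparison addresses whether LT-HSCs change their transcription when macrophages are missing. The libraries are numbered KO1 to KO6 and WT1 to WT4 here. The labels do not say which embryos shared a litter, so the p-values measure the spread between these libraries.

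DNA methylation is laid down by DNMT3A and DNMT3B on unmethylated CpG sites and is copied onto the new strand after replication by DNMT1, which UHRF1 brings to hemimethylated DNA. The TET enzymes oxidize 5-methylcytosine on the way to its removal and need 2-oxoglutarate, which the isocitrate dehydrogenases IDH1 and IDH2 make from isocitrate. ASXL1 is a chromatin regulator that acts with the deubiquitinase BAP1 and with Polycomb. In adult blood, mutations of DNMT3A, TET2 and ASXL1 are the best known drivers of clonal hematopoiesis, and loss of Dnmt3a or Tet2 in mice expands the stem cell pool.

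Dnmt3b was the only one of the 10 genes that passed the test, and it was higher in KO. Its fold change was 2.23, against a share of 1.32% of the 16725 genes tested that were called higher (edgeR's quasi-likelihood test, Benjamini-Hochberg adjusted p below 0.1) and 2.67% that were called lower. Dnmt3a and Tet1 had fold changes of 2.17 and 4.27 and missed the threshold by a small margin, and Tet2 and Tet3 had fold changes of 1.84 and 1.72 with larger adjusted p. The maintenance pair Dnmt1 and Uhrf1, both isocitrate dehydrogenases and Asxl1 had fold changes between 0.897 and 1.23. At an unadjusted p below 0.05, 5 of the 10 genes were higher in KO, beside 8.6% of all genes tested. For none of the 10 did every KO library lie above every WT library, a pattern that 2.88% of all genes tested showed. Every one of the 10 passed the filter on low counts.

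KO libraries held between 5315435 and 30941726 gene counts, WT libraries between 7633446 and 18256010. Levels below are CPM, counts scaled to the depth of the library after TMM normalization, unless TPM is named. Those of Xist are CPM without the TMM factor. The libraries differed in more than the genotype. Xist was high in all 4 WT libraries (78.67 to 142.5 CPM) and higher still in KO2 and KO3 (429.9 and 356.3 CPM). It was low in the other 4 KO libraries (1.426 to 2.684 CPM). This RNA is transcribed from the inactive X of female cells, so sex and genotype cannot be fully told apart. Spi1 itself ranged from 9.10 to 101 CPM in KO and from 6.22 to 50.1 CPM in WT, and Tnfrsf11a from 1.45 to 4.11 CPM and from 0.683 to 5.80 CPM. Globin genes took 0.296 to 12.4% of the counts in KO and 0.124 to 23.5% in WT. All 13 stem cell markers were detected, but the summed level of the list was higher in KO, 753 to 1970 CPM against 649 to 804 CPM, with KO3 the single KO library inside the WT range, and 3 of the 13 passed the test as higher. Ptprc (CD45), which blood cells carry, was at 2.73, 27.9, 23.7 and 50 CPM in WT1 to WT4, at 18 CPM in KO3 and at 66.7 to 150 CPM in the other 5 KO libraries, the pattern of Dnmt3a. The 12 endothelial markers summed to 1390 to 9420 CPM in KO and 319 to 6070 CPM in WT, with Kdr, the VEGF receptor of endothelium, at 154 to 1250 CPM in KO and 50.8 to 794 CPM in WT, and none of them passed the test. The lowest endothelial sum, 319 CPM, was that of WT1. With Ptprc near 0 in WT1 and endothelial genes at higher levels in the other libraries, cells other than stem cells may be present. The purity of the sort was not tested. The 13 macrophage markers in the table summed to 396 to 823 CPM in KO and 70.5 to 844 CPM in WT, with Marco, called lower, at 0 in every KO library. Of the erythroblast markers, which summed to 2210 to 95100 CPM in KO and 2540 to 241000 CPM in WT, Epor was called lower. In bulk samples, fewer cells of a type and less RNA per cell cannot be told apart.

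The sequences at the starts of the methyltransferase genes are shown because CpG sites are the substrate of these enzymes and because Dnmt1 and Dnmt3a each have alternative starts from which their proteins differ. The RefSeq table of the files' build (GRCm38.p6) gave 16 starts for the 10 genes, each a window of 300 bases from 250 before to 50 after the start, and CpG dinucleotides are in capitals. The windows of Dnmt1 are on the minus strand, at chr9:20959839-20960138 for the upstream start of the transcript Dnmt1-202 at chr9:20952930-20953229 for the middle start, that of Dnmt1-201, and at chr9:20952574-20952873 for the start shared by Dnmt1-203 and Dnmt1-207, each with a mean share of Dnmt1 counts under 3%. Those of Dnmt3a are on the plus strand, at chr12:3806730-3807029 for Dnmt3a-201, which encodes 908 residues, and at chr12:3891494-3891793 for Dnmt3a-203 and Dnmt3a-205, which encode 689. Dnmt3b lies on the plus strand and its window is chr2:153649199-153649498.
Dnmt1 upstream start: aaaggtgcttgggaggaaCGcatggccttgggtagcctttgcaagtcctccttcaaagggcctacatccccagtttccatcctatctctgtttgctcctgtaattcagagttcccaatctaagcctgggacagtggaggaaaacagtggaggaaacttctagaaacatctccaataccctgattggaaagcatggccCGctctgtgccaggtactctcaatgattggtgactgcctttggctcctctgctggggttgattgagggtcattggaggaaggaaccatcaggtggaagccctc
Dnmt1 middle start: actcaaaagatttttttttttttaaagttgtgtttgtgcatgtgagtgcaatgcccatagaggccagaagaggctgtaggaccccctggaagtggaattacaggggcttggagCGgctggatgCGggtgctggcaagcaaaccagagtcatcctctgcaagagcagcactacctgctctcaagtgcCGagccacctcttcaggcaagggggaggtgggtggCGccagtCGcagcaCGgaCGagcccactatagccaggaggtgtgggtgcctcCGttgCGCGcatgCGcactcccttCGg
Dnmt1 downstream start: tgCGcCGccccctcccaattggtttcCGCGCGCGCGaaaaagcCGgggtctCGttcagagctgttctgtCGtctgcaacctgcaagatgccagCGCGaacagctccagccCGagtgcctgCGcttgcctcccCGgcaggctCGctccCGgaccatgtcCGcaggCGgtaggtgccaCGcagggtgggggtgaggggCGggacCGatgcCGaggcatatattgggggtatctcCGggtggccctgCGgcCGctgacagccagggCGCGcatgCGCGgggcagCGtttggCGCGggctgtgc
Dnmt3a long form start: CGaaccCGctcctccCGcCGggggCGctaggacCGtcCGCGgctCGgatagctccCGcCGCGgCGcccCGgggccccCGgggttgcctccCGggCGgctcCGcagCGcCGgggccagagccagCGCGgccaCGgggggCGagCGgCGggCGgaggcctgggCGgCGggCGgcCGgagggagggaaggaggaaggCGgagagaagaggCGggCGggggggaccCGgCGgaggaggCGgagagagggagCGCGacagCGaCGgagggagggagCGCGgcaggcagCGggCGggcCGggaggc
Dnmt3a short form start: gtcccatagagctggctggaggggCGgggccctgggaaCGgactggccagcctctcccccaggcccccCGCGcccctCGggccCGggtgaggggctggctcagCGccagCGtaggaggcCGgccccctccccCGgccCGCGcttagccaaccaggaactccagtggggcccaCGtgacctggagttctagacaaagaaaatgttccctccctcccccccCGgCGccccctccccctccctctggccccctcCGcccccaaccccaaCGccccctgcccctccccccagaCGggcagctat
Dnmt3b start: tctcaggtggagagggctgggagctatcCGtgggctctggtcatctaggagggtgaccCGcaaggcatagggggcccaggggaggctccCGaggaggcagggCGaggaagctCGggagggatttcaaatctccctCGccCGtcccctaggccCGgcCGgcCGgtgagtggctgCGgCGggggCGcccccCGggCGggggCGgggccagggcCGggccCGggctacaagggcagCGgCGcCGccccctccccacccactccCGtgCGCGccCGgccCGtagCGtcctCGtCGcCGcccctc

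The upstream Dnmt1 window holds 2 CpG, and 14.1% of the 32851 windows in the table hold fewer. The middle window holds 12 and the downstream window 33. The window of the long Dnmt3a form holds 46, more than 98.4% of all windows, and that of the short form holds 18. Dnmt3b has 30 CpG. The median of all windows is 7. Among the other genes, the Tet2 window at chr3:133544341-133544640 on the minus strand is the densest with 57 CpG, more than in 99.8% of all windows. A set of 6 motifs was searched on both strands, the E2F motifs TTTGGCGC and TTTCCCGC, the E-box CACGTG, the ETS motifs GAGGAAGT and CCGGAAGT, and the GATA motif AGATAA. TTTGGCGC was found in 1 of the 16 windows, the downstream Dnmt1 start, and in 0.514% of all windows. CACGTG was found in 1, the start of the short Dnmt3a form, and in 7.15% of all windows. The other 4 were found in none of the 16, and in 1.07%, 3.2%, 3.89% and 11.2% of all windows in the order given. A match of letters is a description of the window and not a binding site.

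Dnmt1, the maintenance methyltransferase (chromosome 9, 20907209 to 20959888, minus strand), was at 191, 234, 300 and 170 CPM in WT1 to WT4. In KO it ran from 183 CPM to 290 CPM with a median of 262 CPM. The groups overlapped over most of their range, and the highest library of all was WT3. The fold change was 1.13 with a 95% interval of 0.841 to 1.52 (log2 fold change 0.18 ± 0.20 SE, edgeR adjusted p = 0.675, exact permutation p = 0.329, two-sided). Uhrf1, its cofactor (chromosome 17, 56303321 to 56323486, plus strand), spread more widely, at 260, 229, 405 and 74.7 CPM in WT1 to WT4. Its KO libraries lay between 177 and 343 CPM with a median of 256 CPM. Both the highest and the lowest Uhrf1 values were in WT libraries. The fold change was 1.03, with an interval of 0.603 to 1.77 (edgeR adjusted p = 0.962). Both genes were high together: after centring each genotype on its mean, their log2 levels had a Pearson r of 0.79 and a Spearman rho of 0.72 over the 10 libraries, which share depth and cell content as sources of spread.

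The de novo enzymes overlapped with WT in 1 KO library each. Dnmt3b (chromosome 2, 153649450 to 153687730, plus strand) was at 58.9, 84.0, 66.9 and 66.7 CPM in WT1 to WT4, a narrow range. In KO it ran from 60.0 CPM in KO3 over a median of 168 CPM to 214 CPM in KO4. In all, 5 of the 6 KO libraries lay above the highest WT library, and KO3 lay among the WT libraries. The mean was 154 ± 58.4 CPM in KO (SD, n = 6) and 69.1 ± 10.6 CPM in WT (SD, n = 4). The log2 fold change was 1.16 ± 0.31 (SE) with edgeR's adjusted p = 0.0910, and the two-sided exact permutation test gave p = 0.0286, where 0.00476 is the smallest p this design allows. The call was lost when any 1 of the 9 libraries other than KO3 was left out (adjusted p from 0.103 to 0.212), and without KO3 it stood at 0.0494.

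Dnmt3a (chromosome 12, 3806007 to 3914443, plus strand) was at 38.5, 123, 85.4 and 113 CPM in WT1 to WT4. Its KO libraries ran from 113 CPM in KO3 to 285 CPM in KO4 with a median of 201 CPM. WT1 was the lowest library, and 5 of 6 KO libraries were above the highest WT library, again with KO3 as the exception. The log2 fold change was 1.12 ± 0.32 (SE), with a 95% interval of the fold of 1.33 to 3.54, edgeR's adjusted p = 0.105 and an exact permutation p = 0.0190. Under the DESeq2 settings of the study (a log2 fold-change threshold of 0.1), Dnmt3a, Dnmt3b and Tet1 passed with adjusted p of 0.0553, 0.0437 and 0.0239, beside 3.5% of all genes called higher by it. Dnmt3b relative to Dnmt1 was 0.245 to 0.840 counts per Dnmt1 count in KO and 0.223 to 0.393 in WT, above the highest WT library in 5 of 6 KO libraries. Dnmt3a per Dnmt1 count ran from 0.461 to 1.08 in KO and from 0.201 to 0.667 in WT, above every WT library in 4 of 6 KO libraries. The ratio of the de novo enzymes to each other overlapped between the groups, with medians of 1.31 Dnmt3a counts per Dnmt3b count in KO and 1.37 in WT.

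**Figure D1:**
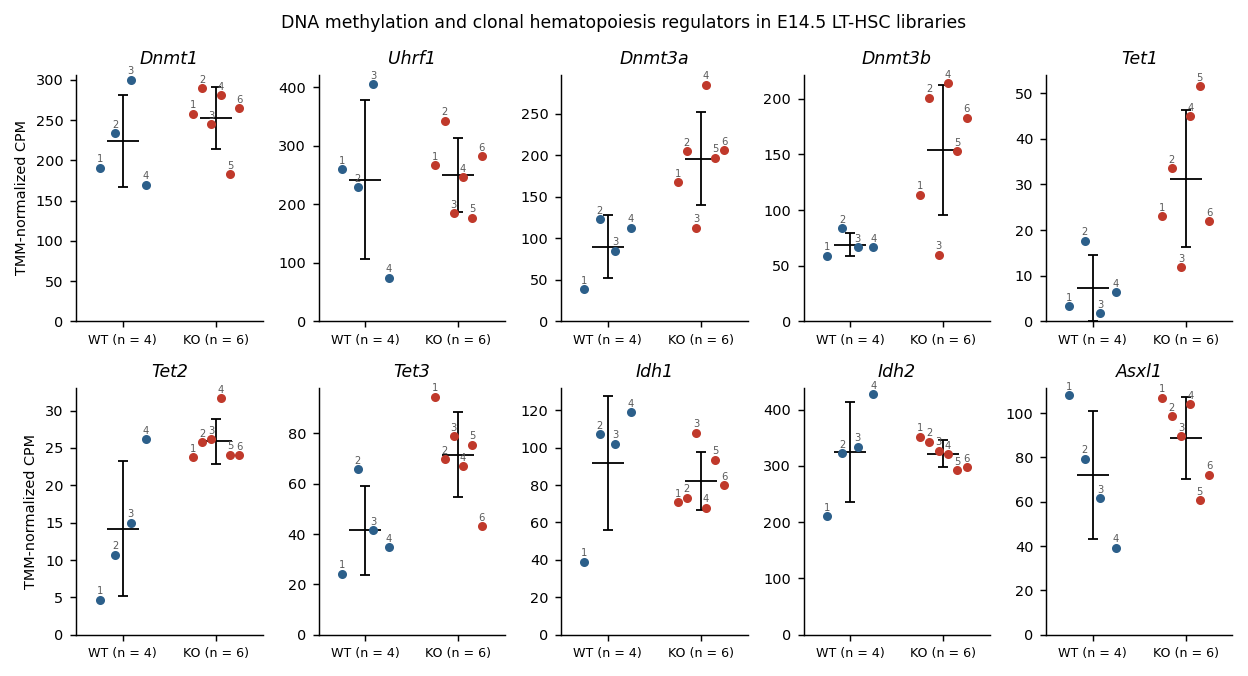
TMM-normalized CPM (linear axes from 0) of the 10 genes in 4 WT libraries (blue) and 6 KO libraries (red), numbered by library, with the mean and SD in black. Dnmt3a, Dnmt3b, Tet1 and Tet3 each have 5 of 6 KO libraries above the highest WT library, while Dnmt1, Uhrf1, Idh1, Idh2 and Asxl1 have none.

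Of the TET dioxygenases, Tet1 (chromosome 10, 62804570 to 62908996, minus strand) had the largest fold change of the 10 genes and few counts in WT. It was at 3.34, 17.7, 1.85 and 6.37 CPM in WT1 to WT4, and 11.9 CPM in KO3 to 51.5 CPM in KO5 with a median of 28.3 CPM. KO3 alone among the KO libraries was below WT2, and the lowest library, WT3, had 25 counts. The log2 fold change was 2.09 ± 0.62 (SE), with an interval of the fold of 1.69 to 10.8, edgeR's adjusted p = 0.109 and an exact permutation p = 0.0238. Leaving out WT2, the highest WT library, moved it to 3.03 with an edgeR adjusted p of 0.0746. Leaving out WT3, the lowest, moved it to 1.80 with 0.147.

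Tet2 (chromosome 3, 133463679 to 133545139, minus strand), the TET enzyme most often mutated in blood, was at 4.70, 10.7, 15 and 26.2 CPM in WT1 to WT4. The KO libraries lay close together, from 23.8 to 31.7 CPM with a median of 24.9 CPM. WT4 was level with KO, and the other 3 WT libraries were below every KO library. The log2 fold change was 0.88 ± 0.39 (SE) with edgeR's adjusted p = 0.244 and an exact permutation p = 0.0238. Without WT4, the highest WT library, it was 1.35 with an edgeR adjusted p of 0.0897. Without WT1, the lowest, it was 0.59 with 0.362.

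Tet3 (chromosome 6, 83362373 to 83459084, minus strand) was at 24.3, 65.7, 41.5 and 34.7 CPM in WT1 to WT4. It ran from 43.2 CPM in KO6 to 94.6 CPM in KO1 with a median of 72.6 CPM. Here the KO library inside the WT range was KO6 and not KO3. The log2 fold change was 0.78 ± 0.29 (SE) with edgeR's adjusted p = 0.176 and an exact permutation p = 0.0286. It was 1.10 with an edgeR adjusted p of 0.0806 without WT2, the highest WT library. Without WT1, the lowest, it was 0.60 with 0.326.

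Neither isocitrate dehydrogenase passed the test. Idh2, the mitochondrial enzyme (chromosome 7, 80094846 to 80115392, minus strand), was at 211, 323, 334 and 428 CPM in WT1 to WT4 and between 292 and 352 CPM in KO. The KO libraries lay inside the span of the WT libraries. Its fold change was 0.994 with a 95% interval of 0.750 to 1.32 (edgeR adjusted p = 0.986). Idh1, the cytosolic enzyme (chromosome 1, 65158616 to 65186500, minus strand), was at 39.1, 107, 102 and 119 CPM in WT1 to WT4, and ran from 67.8 to 108 CPM in KO. WT1 was the lowest library for both enzymes. The fold change of Idh1 was 0.897, with an interval of 0.590 to 1.36 (edgeR adjusted p = 0.810). Asxl1 (chromosome 2, 153345829 to 153404007, plus strand) was at 108, 79.4, 61.6 and 39.2 CPM in WT1 to WT4 and between 60.6 and 107 CPM in KO. Its highest library was WT1 and its fold change was 1.23, with an interval of 0.817 to 1.85 (edgeR adjusted p = 0.601). For each of these 3 genes the interval leaves room for a change in either direction.

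A further 3 measures moved with the genotype, and their values are given beside the fold changes. Genes with longer transcripts were higher in KO across the table. The median log2 fold change went from -0.256 in the shortest of 5 equal bins of genes to 0.329 in the longest. Each gene's level was also centred on its mean over the 10 libraries, and these deviations were correlated with transcript length in each library. KO libraries had a Spearman rho from 0.0645 up to 0.151, and WT libraries had one from -0.160 up to -0.0842. Such centring sets the groups against each other, so their opposite signs restate the trend and are not separate evidence for it. With an offset for transcript length the log2 fold changes were 0.95 for Dnmt3a, 0.86 for Dnmt3b, 1.85 for Tet1, 0.59 for Tet2 and 0.39 for Tet3, and no gene of the table passed the threshold. The length used was the mean over a gene's annotated transcripts, 2324 bases for Dnmt3a and 3405 for Tet1. Dnmt3a-201, with the largest mean share of the Dnmt3a counts, has 9685 bases, and Tet1-201 and Tet1-206 have 13986 and 14369. How well the offset fits these genes was not tested. With Xist as a covariate Dnmt3b was at 1.02 (adjusted p = 0.257), and among the libraries with high Xist alone, KO2 and KO3 against WT, at 0.90 (adjusted p = 0.837). With the mean level of 30 replication and mitosis genes as a covariate the values were 0.38 for Dnmt3a, 0.67 for Dnmt3b and 0.58 for Tet1, again with no gene called. In the same fit Uhrf1 was at 0.89 ± 0.50 (SE) and Asxl1 at 0.69 ± 0.38, against 0.05 and 0.30 without the covariate. The part of transcript length, sex and proliferation in the differences was not tested further.

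**Figure D2:**
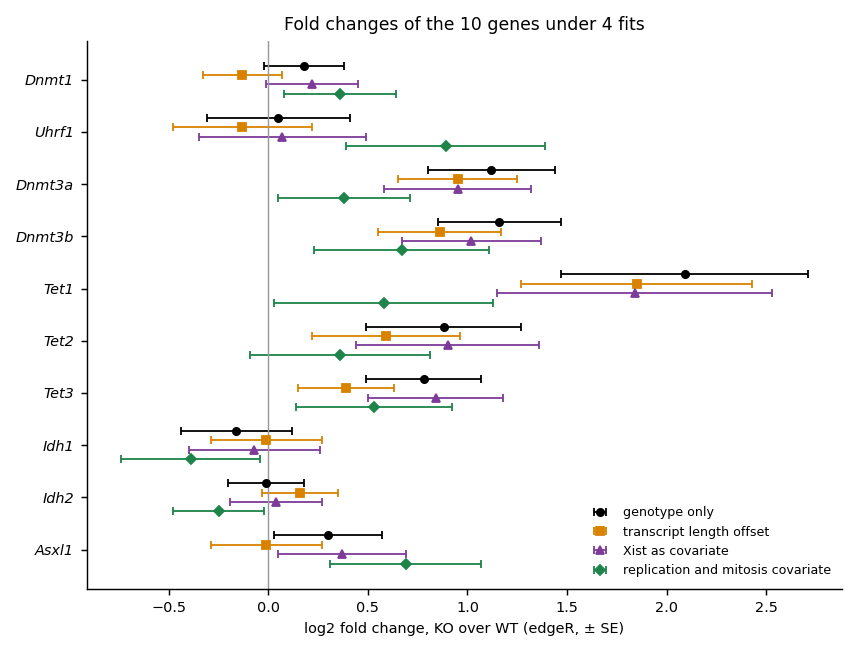
Log2 fold change of KO over WT with its SE (edgeR, x axis) for the 10 genes in 4 fits, genotype only in black, with a transcript length offset in orange, and with Xist (purple) or the mean of replication and mitosis genes (green) as a covariate. Dnmt3a, Dnmt3b and the 3 Tet genes lie to the right of 0 in every fit, with Tet1 moving from 2.09 to 0.58.

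The same KO library, KO3, was lowest for Dnmt3a, Dnmt3b and Tet1, and it was also the lowest KO library for the stem cell marker list. The list summed to 1170, 1560, 753, 1970, 1320 and 1550 CPM in KO1 to KO6 and to 663, 804, 649 and 662 CPM in WT1 to WT4. After centring each genotype on its mean, the Pearson r of the log2 level with the log2 sum was 0.97 for Dnmt3b, 0.66 for Dnmt3a and 0.62 for Tet1, and it was 0.22 for Dnmt1, 0.05 for Tet2 and -0.14 for Tet3 over the 10 libraries. Its points share the library, its depth and its cell content, and the part of cell content in the fold changes of Dnmt3a, Dnmt3b and Tet1 was not tested. KO3 was also the library with the highest summed endothelial markers, 9420 CPM, and the highest Kdr, 1250 CPM. Without KO3, Dnmt3a, Dnmt3b and Tet1 passed the edgeR test, with log2 fold changes of 1.23, 1.32 and 2.26 and adjusted p of 0.0682, 0.0494 and 0.0742. Leaving out the lowest KO library of these genes raises their fold changes by construction, so this is not separate evidence. That fit called 405 of 16602 genes higher and 598 lower, against 221 and 446 of 16725 with all libraries.

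**Figure D3:**
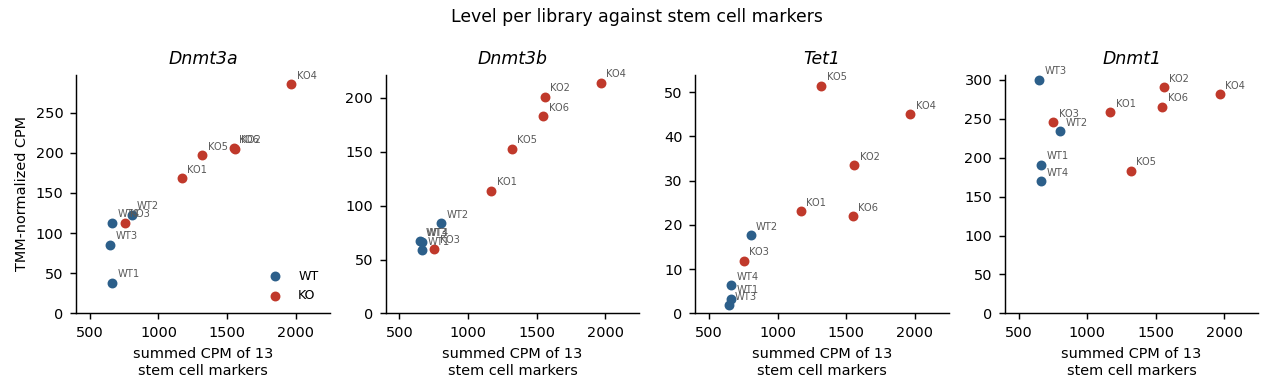
TMM-normalized CPM of Dnmt3a, Dnmt3b, Tet1 and Dnmt1 (y axes) against the summed CPM of 13 stem cell markers (x axes) in each WT (blue) and KO (red) library. KO3, with a marker sum of 753 CPM, sits with the WT libraries at 649 to 804 CPM for the first 3 genes, and KO4, with the highest sum of 1970 CPM, has the highest Dnmt3a and Dnmt3b.

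Among 9494 genes with a mean of at least 10 CPM, the one whose centred log2 level was most like Dnmt3a was Mecom, the stem cell transcription factor EVI1 and a member of the marker list, with r = 0.99 and rho = 0.93 over 10 libraries. Gpr171 and Cfap43 followed at r = 0.97. The closest to Dnmt3b were Gpr132, Rassf5 and Sesn1, each at r = 0.95, and the closest to Tet1 was Stk38 at r = 0.94, followed by Wdr31 at 0.93 and Tmem154 at 0.92. Mgrn1 and Rfx1 (both 0.96) and Elmo2 (0.95) led for Dnmt1, and Ints5, Gpaa1 and Ifrd2 for Uhrf1, each at r = 0.98. Tet2 was closest to Cd63, Mlkl and Ubl3, each with r = 0.95 but a rho of only 0.60 to 0.76. Tet3 was closest to Zfp623 (0.98), Vav2 and Abl1 (both 0.96). Asxl1 was closest to Xrcc2 (0.98), Ints2 and Cpsf6 (both 0.97). For Idh1 the closest were Snn, Cd59a and C1qb, each at 0.96, and for Idh2 they were Mindy4 (0.98), Accs and Gimap1 (both 0.97). Within the 10 genes, Dnmt3a and Dnmt3b had r = 0.70 and Dnmt3a and Tet1 r = 0.66. With the replication and mitosis genes, Dnmt3a and Tet1 had r = -0.81 and -0.82. Uhrf1 had r = 0.61 with them, and Dnmt1 had r = 0.34 with a rho of 0.13. A search over many genes and few libraries yields high r, so these are descriptions only.

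Per length, Idh2 was the most abundant of the 10 in both groups, with a mean of 248 ± 55.9 TPM in KO (SD, n = 6) and 193 ± 78.5 TPM in WT (SD, n = 4). In KO the order continued with Uhrf1 at a mean of 86.4 TPM, Dnmt1 at 75.8, Dnmt3a at 57.4, Dnmt3b at 46.1, Idh1 at 40.8, Asxl1 at 14.2, Tet1 at 8.91, Tet3 at 8.70 and Tet2 at 8.37 TPM. Neighbours in that order were separated in every KO library at 2 steps only, between Idh2 and Uhrf1 and between Idh1 and Asxl1. In WT the order after Idh2 was Dnmt1 at 59.7 TPM, Uhrf1 at 56.7, Idh1 at 39.0, Dnmt3a at 21.0, Dnmt3b at 15, Asxl1 at 8.45, Tet2 at 4.01, Tet3 at 3.49 and Tet1 at 2.11 TPM, and only Idh2 and Dnmt1 did not overlap. Dnmt3a and Dnmt3b thus stood above Idh1 in KO and below it in WT by their means. Within libraries, Idh1 was above Dnmt3a in 4 of 4 WT libraries, although the ranges overlapped, and Dnmt3b was above Idh1 in 3 of 6 KO libraries. The TET genes were the least abundant in both groups, and Tet1 moved from the last place in WT to the first of the 3 in KO, where the 3 could not be ordered beyond their spread.

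**Figure D4:**
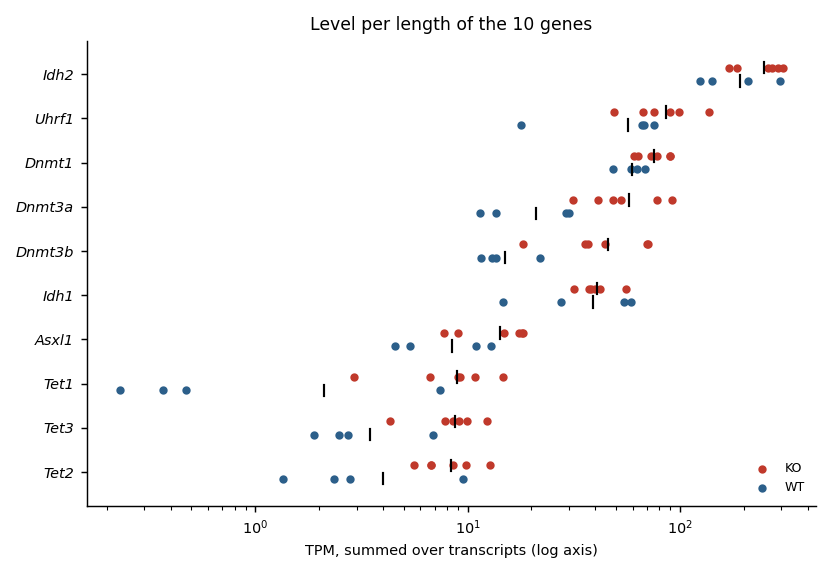
TPM summed over the transcripts of each gene (log axis), per KO (red) and WT (blue) library, with the group mean as a black bar and genes in the order of the KO mean. Idh2 is at the top at 171 to 307 TPM in KO, and the TET genes are at the bottom, with 3 of the WT libraries at 0.230 to 0.473 TPM for Tet1.

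Transcript use was read from the Kallisto estimates, which split reads between transcripts that share most of their bases. For none of the 9 genes with at least 30 counts in every library did the share of the main transcript separate the groups, beside 4.03% of 8112 genes with more than 1 transcript for which it did. Tet1 was under that minimum in WT3. Dnmt3a-201, the long form, held 58.9 ± 9.65% of the Dnmt3a counts in KO (SD, n = 6) and 43.7 ± 10.3% in WT (SD, n = 4), and the groups overlapped. The short-form transcript Dnmt3a-203 held 9.76, 15.8, 37.5, 24.3, 1.65 and 26.4% in KO1 to KO6 and 31.8, 28.7, 38.1 and 45.9% in WT1 to WT4. Among the KO libraries, 5 of 6 were below the lowest WT share, with KO3 again inside the WT range. The second short-form transcript, Dnmt3a-205, went partly the other way, with 0 to 20.8% in KO and 0 to 10.5% in WT. Of the bases of Dnmt3a-203, 97.8% lie in Dnmt3a-201 as well, so the split rests on few bases.

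Dnmt1-202, from the upstream start with 2 CpG, was assigned 45.7 to 64.1% of the Dnmt1 counts in KO and 26.7 to 71.7% in WT, and Dnmt1-201, from the middle start with 12 CpG, 14.9 to 45.5% and 14.1 to 28.6%. Dnmt1-202 encodes 1501 residues against the 1620 of Dnmt1-201. Of the bases of Dnmt1-202, 97.0% lie in Dnmt1-201 as well and only 156 do not. The split thus rests on few bases, and which start was in use was not tested. The retained-intron transcript Dnmt1-204 took 47.0% of the Dnmt1 counts in WT4, the library with the lowest Dnmt1 and Uhrf1, and 3.80 to 25.7% in the other libraries. Dnmt3b was split between Dnmt3b-206 (776 residues) and Dnmt3b-207 (860 residues), whose shares were 14.9 to 52.8% and 30.9 to 45.4% in KO and 36.8 to 63.8% and 10.4 to 49.6% in WT. Tet3-202 held 88.2 to 91.4% of the Tet3 counts in KO and 91.2 to 98.1% in WT, where only KO3 was above the lowest WT library.

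Of the 10 genes, Tet2 had the largest share outside protein-coding transcripts in every library. That share was 100, 78.2, 25.3 and 77.9% in WT1 to WT4 and 30.1 to 52.6% in KO. In WT1, WT2 and WT4 more of the Tet2 counts fell outside coding transcripts than in any KO library, and WT3 was below every KO library. The coding transcript Tet2-201 (1912 residues) was estimated at 0, 26.6, 123 and 27 counts in WT1 to WT4 and at 92.8 to 471 counts in KO. These counts are not scaled to depth, so their ranges do not compare levels. The depth was 5315435 in KO2, the library with 92.8 counts, and 18256010 in WT3. WT4, which matched KO in its Tet2 gene count, was below every KO library in the counts on the coding transcript, which held 46.7 to 69.9% of the Tet2 counts in KO. These estimates rest on as few as 62 Tet2 counts in WT1.

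**Figure D5:**
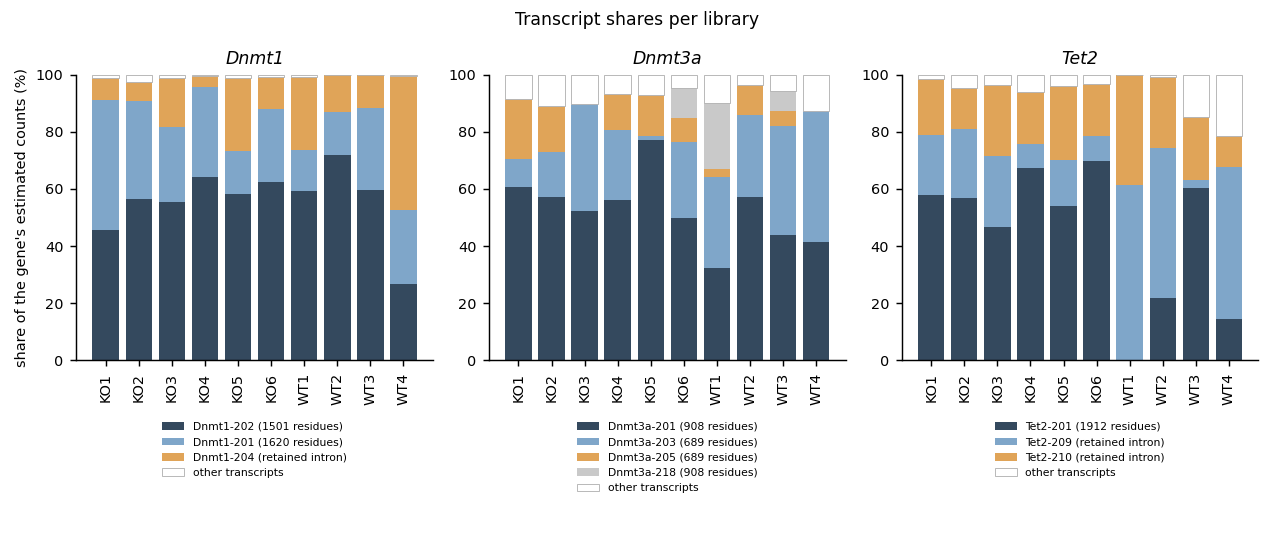
Share of the estimated counts of Dnmt1, Dnmt3a and Tet2 on each main transcript (y axis, percent) in each library, with the other transcripts in white. The coding transcript Tet2-201 (dark) holds 46.7 to 69.9% in KO, 60.3% in WT3 and 0 to 21.8% in the other WT libraries, while the shares of Dnmt1-202 and Dnmt3a-201 overlap between the groups.

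Of the other genes of the pathway, 128 on 7 lists were tested. Of these, 3 were called higher and 11 lower, beside 1.32% and 2.67% of all genes tested. Their median log2 fold change was -0.24, beside 0.06 over all genes tested. As for Dnmt3b, these 14 calls were lost with the transcript length offset, with Xist as a covariate, and without any 1 of KO1, KO2, KO4, KO5, KO6 and WT1. Of the 6 tested partners of the methyltransferases, Qser1, which protects bivalent promoters from methylation, rose from 16.7 to 25.6 CPM in WT to 31.1 to 37.6 CPM in KO (log2 fold change 0.80 ± 0.21, edgeR adjusted p = 0.0905). Every KO library lay above every WT library for Qser1, and with the transcript length offset its log2 fold change was 0.15. Hells, a remodeler needed for methylation, and Cdca7, which recruits it, were at 0.14 ± 0.22 and -0.13 ± 0.22 (adjusted p = 0.785 and 0.798). Of the readers of methylated CpG, Mbd2 was at -0.71 ± 0.28 and Zbtb38 at 0.57 ± 0.23 (edgeR adjusted p = 0.196 and 0.215).

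None of the 14 genes of demethylation and base excision repair passed the test (at an unadjusted p below 0.05, 1 was higher and 1 lower, and DESeq2 without a fold threshold called Ogt). Ogt, which binds TET proteins, was at 0.67 ± 0.23 (adjusted p = 0.150), the ligase Lig3 at 0.61 ± 0.30 (0.304) and the endonuclease Apex1 at -0.48 ± 0.19 (0.193). Of 12 genes of methyl donor synthesis 10 had negative fold changes, with a median of -0.31 beside 0.06 over all genes tested. Mthfd2, a mitochondrial folate enzyme, fell by 1.25 on the log2 scale, to 23.3 to 49.1 CPM in KO from 38.9 to 119 CPM in WT (SE 0.32, edgeR adjusted p = 0.0836). Ahcy, which clears the product that inhibits methyltransferases, was at -0.73 ± 0.25 (adjusted p = 0.155) and Ahcyl1 at -0.41 ± 0.22 (0.332).

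The enzymes around 2-oxoglutarate and the TCA cycle had negative fold changes in 20 of 23 cases, with a median of -0.44, and Idh1 and Idh2, which are not on the list, were at -0.16 and -0.01. Those called lower were Idh3b, Sdhb, Mdh2 and Sucla2. Idh3b, a subunit of the third isocitrate dehydrogenase, fell to 210 to 256 CPM in KO from 298 to 413 CPM in WT (log2 fold change -0.59 ± 0.15, edgeR adjusted p = 0.0836). Sdhb, of succinate dehydrogenase, was at -0.89 ± 0.19 and Mdh2, malate dehydrogenase, at -0.79 ± 0.19 (adjusted p = 0.0824 for both). Of 35 other genes of clonal hematopoiesis, the transcription factor Cux1 rose (0.85 ± 0.22, edgeR adjusted p = 0.0856), while the splicing factor Srsf2 and Brcc3 fell (-0.76 ± 0.21 and -0.83 ± 0.22, adjusted p = 0.0918 and 0.0860), and the list's median was -0.03. Of the 30 replication and mitosis genes all had negative fold changes, with a median of -0.49, and Ccnb1, Ccnb2, Gins1 and Rfc4 were called lower. Rfc4, a clamp loader subunit, had the largest change of the 3 named by the smallest p, -1.22 ± 0.24 (adjusted p = 0.0824), and the mitotic cyclins Ccnb1 and Ccnb2 were at -0.90 ± 0.20 and -0.74 ± 0.16. Uhrf1 and Dnmt1, which are known to follow replication, had fold changes of 1.03 and 1.13 beside them.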

How the data were processed

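The libraries were made with SmartSeq2 and sequenced as single-end reads without strand or molecular identifiers. Reads were converted with bcl2fastq 2.20 and quantified with Kallisto 0.44.0 on Gencode vM16 (GRCm38), per the labels and the methods of the study. The authors deposited a table of estimated counts per gene symbol, rounded and not normalized, and a table per library of transcripts with estimated counts and with TPM, which Kallisto scaled for effective length and depth. Depth was 5315435 to 30941726 counts per library, and low counts limit Tet1 and Tet2 in WT most.

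Genes with at least 11 counts in total (16725 of 17404) were tested with edgeR 4.0.16 in R 4.3.3 (glmQLFit with robust estimation, glmQLFTest, TMM), with Benjamini-Hochberg adjustment over all of them and a threshold of 0.1. Standard errors were derived from the F statistic, and intervals are at 95% with the degrees of freedom of the fit. Two-sided exact permutation tests used the 210 splits into 6 and 4. Alternatives were DESeq2 1.42.0, other normalizations and filters, length and GC offsets, covariates, and leaving out libraries. The fits were tested on simulated data. Positions and lengths were read from Gencode vM21, which is on the same build, and start windows from RefSeq. All 10 genes are named, with the 3 genes of smallest p from each of 7 pathway lists and the 3 most like each of the 10 in centred log2(CPM + 0.5). Sucla2 and Gins1, also called on a list, were named after their values were seen. The genes and lists were chosen with earlier results of these data known. Dnmt3l has no row in the table used here. One result of a pathway list is not reported here.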

Additional observations from a re-analysis of the deposited data

Results flagged for a closer look

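Tet2 in KO4, at 31.7 CPM, stood apart from the other 5 KO libraries at 23.8 to 26.2 CPM. The gap to the nearest library was 0.698 of the range of the KO group. The gap needed to call a library apart is smaller in a group of 6 than in a group of 4. By Dixon's test at 95% this was the only one of 20 groups (10 genes in KO and in WT) past its limit, and chance marks about 1 in 20 such groups. Larger gaps in WT, 0.787 for Idh1 in WT1 and 0.714 for Tet1 in WT2, did not pass the limit for 4 libraries.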

How the results depend on the processing

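Of the 10 genes, 1 (Dnmt3b) was called higher in KO, and 0 at an adjusted p below 0.05, with the transcript length offset, with Xist or proliferation as a covariate, or among libraries with high Xist. With DESeq2, 3 were called with a fold threshold and 4 without, with filterByExpr 3, with the GC offset 2, and with 1 library left out 0 to 3. Over all 16725 genes, 221 were called higher in the main fit, 585 and 998 in these DESeq2 fits, and 243 with the GC offset. With filterByExpr 326 of 13665 genes were called higher, and with 1 library left out 0 to 405 genes. Of the pathway genes, 3 were called higher and 11 lower. Both counts were 0 at an adjusted p below 0.05, with the length offset, with the Xist covariate and among libraries with high Xist, were 6 and 23 with DESeq2 without a fold threshold, and ran from 0 to 4 and from 0 to 15 with 1 library left out. DESeq2 without a fold threshold called 998 of all 16725 genes tested higher and 1145 lower. No gene of the whole table passed in 9 of 25 alternative fits, 5 of them leaving out 1 library. The direction of Dnmt3a, Dnmt3b and the Tet genes held in all 25, with Dnmt3b from 0.67 to 1.32.

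Genes near 0 changed sign. Dnmt1 was at -0.13 with the length offset and -0.09 in transcript sums with length offsets. Uhrf1 was at -0.13 with the length offset, -0.0041 with the GC offset, and -0.25 to 0.46 with 1 library left out. Asxl1 was at -0.01 with the length offset. Idh2 was at 0.0021 with upper-quartile normalization, 0.16 with the length offset, 0.04 with Xist, 0.03 among libraries with high Xist, 0.02 without globin genes, and -0.17 to 0.15 with 1 library left out. Cdca7 was at 0.07 with the length offset and -0.22 to 0.09 with 1 library left out. The main transcript share separated the groups for 0 to 2 of the genes with 1 library left out. In WT, 1 pair of neighbours in level did not overlap, and 2 did not on CPM per kb or with any 1 library left out. The cause was not tested. High Xist libraries and globin genes were chosen as alternatives after seeing the data. No paired analysis was possible because the labels give the groups no shared replicate numbers. Depth limits Tet1 and Tet2, which had as few as 25 and 62 counts in a WT library.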
